A study of Mus musculus with 12 samples.

Results

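The genes described here encode the plasma and cell-surface proteins of blood coagulation, fibrinolysis and complement. They were chosen by name, as a list of 46 genes, and 44 of them had a probe set (a group of array probes for one transcript) that names that gene alone, out of 17097 genes named on the arrays. All 23 coagulation genes and all 5 fibrinolysis genes were measured, and 16 of 18 complement genes. C3 and Cfd are not analysed here. The transcripts were read on 12 arrays (Affymetrix HT MG430 PM plates) from a study of mice that lack Abcb11, the bile salt export pump of the hepatocyte, and of the lungs of pups born to such mothers. The liver arrays were from female C57BL/6 mice of 1.5 months, 3 wild type (WT) and 3 Abcb11-/-. The 6 lung arrays were from C57BL/6 offspring at embryonic day 17.5 (E17.5), at E18.5 and on neonatal day 0 (PN0), with a single array for a WT mother and a single array for an Abcb11-/- mother at each stage. All lung donors were Abcb11+/-, since each mother was mated with a male of the other genotype, and how many pups each lung array stands for is not stated. Abcb11-/- livers lack the gene from conception, so differences seen in the adult liver cannot be dated to any age.

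In coagulation, contact factors (F12, Klkb1, Kng1) and tissue factor (F3) start chains of proteases that end in thrombin (F2). Thrombin turns fibrinogen, a protein of 3 chains (Fga, Fgb, Fgg), into fibrin. Antithrombin (Serpinc1), protein C (Proc) and protein S (Pros1) restrain the chain, and plasmin (Plg) dissolves the clot. Complement is a second protease cascade, opened by C1q, by the lectin-associated proteases Masp1 and Masp2 or by factor B (Cfb), and it ends in a pore built from C6, C8 and C9 among others. Hepatocytes make most of the plasma proteins of both cascades, whereas C1q comes from macrophages, von Willebrand factor (Vwf) and thrombomodulin (Thbd) from endothelium, and tissue factor from cells outside the vessel. Several clotting factors need vitamin K, whose uptake from the gut needs bile, for a change made to the protein after translation, which an mRNA array does not see.

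Promoter sequences are shown for 5 genes that the results turn on: the 3 fibrinogen genes, which form a cluster and lay together on the lung arrays, and the neighbours F11 and Klkb1, of which F11 was lower in Abcb11-/- liver while Klkb1 did not pass the test. Each runs 5′ to 3′ along the gene's own strand, from 250 bases before the annotated start through 50 bases after it, as given by RefSeq for GRCm38.p6. Capitals mark letters of motifs known from liver promoters, searched on both strands: GTTAAT of HNF1, TTGCNNAA of C/EBP and TTCNNNGAA of STAT, where N is any base. No capitals of different motifs overlap in these 5 sequences.
Fga, chr3:83025903-83026202, plus strand: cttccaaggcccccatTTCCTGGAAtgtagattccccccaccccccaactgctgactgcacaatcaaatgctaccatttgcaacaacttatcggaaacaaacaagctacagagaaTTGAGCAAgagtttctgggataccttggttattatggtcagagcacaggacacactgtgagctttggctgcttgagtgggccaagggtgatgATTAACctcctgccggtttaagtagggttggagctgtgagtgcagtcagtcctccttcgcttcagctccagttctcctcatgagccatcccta
Fgb, chr3:83049814-83050113, minus strand: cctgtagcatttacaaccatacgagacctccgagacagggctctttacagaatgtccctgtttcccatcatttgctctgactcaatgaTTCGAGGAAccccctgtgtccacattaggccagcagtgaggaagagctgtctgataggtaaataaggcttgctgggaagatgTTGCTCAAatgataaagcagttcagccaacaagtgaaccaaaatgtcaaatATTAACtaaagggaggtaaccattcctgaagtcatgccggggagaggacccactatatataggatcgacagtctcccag
Fgg, chr3:83007474-83007773, plus strand: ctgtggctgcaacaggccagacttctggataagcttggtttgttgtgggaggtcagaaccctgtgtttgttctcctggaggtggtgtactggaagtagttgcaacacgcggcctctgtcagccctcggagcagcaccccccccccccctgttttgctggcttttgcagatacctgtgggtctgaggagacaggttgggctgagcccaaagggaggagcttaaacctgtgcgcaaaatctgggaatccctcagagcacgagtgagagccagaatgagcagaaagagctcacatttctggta
F11, chr8:45261982-45262281, minus strand: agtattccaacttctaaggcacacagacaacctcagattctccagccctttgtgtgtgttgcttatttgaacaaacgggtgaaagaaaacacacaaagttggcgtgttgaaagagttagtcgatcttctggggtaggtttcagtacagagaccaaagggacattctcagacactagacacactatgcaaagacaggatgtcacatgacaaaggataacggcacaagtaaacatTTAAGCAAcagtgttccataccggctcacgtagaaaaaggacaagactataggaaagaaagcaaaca
Klkb1, chr8:45294786-45295085, minus strand: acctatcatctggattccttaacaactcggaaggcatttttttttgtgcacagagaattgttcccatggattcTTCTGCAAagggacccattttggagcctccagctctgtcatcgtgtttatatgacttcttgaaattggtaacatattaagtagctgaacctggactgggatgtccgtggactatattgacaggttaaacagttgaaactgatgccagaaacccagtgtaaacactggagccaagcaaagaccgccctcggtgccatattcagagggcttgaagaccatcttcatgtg
Fga and Fgb each held all 3 sets of letters, and Fgg held none in this window. F11 and Klkb1 both held the C/EBP letters, at base -17 and base -177 from the start.

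Across all 32851 promoters in the RefSeq table, 7.1% held the HNF1 letters, 10.8% the C/EBP letters and 8.3% the STAT letters. A promoter was in the table for 32 of the 46 genes. Of the 20 with a promoter that are defined below as liver-type, 6 held the HNF1 letters (F13b, F2, Fga, Fgb, C8b and C8a), 7 the C/EBP letters (Serpinc1, Fga, Fgb, F11, Klkb1, C9 and F9) and 5 the STAT letters (Fga, Fgb, C8a, Masp2 and F9). Of 8 genes defined as lung-expressed, Plaur held the C/EBP letters, Pros1 held the STAT letters and none held those of HNF1. The letters CAAAGTCCA of HNF4 (0.475% of all promoters) and GTCANTGAC of FXR, the bile acid receptor (0.387%), were in none of these promoters. A match of letters is a description of the sequence and not a binding site.

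On the liver arrays the targeted gene followed the labels, with log2 values of Abcb11 at 11.05 ± 0.17 in the WT group and 3.10 ± 0.18 in the Abcb11-/- group (SD, n = 3). Array medians were 3.15 to 3.18 in the liver and 3.63 to 3.68 in the lung, so a level in one tissue is not on the same scale as in the other. None of 9 hepatocyte markers passed the test. Their log2 summed level, which bright genes such as Alb and Apoa1 set, was 16.40 to 16.45 in WT and 16.37 to 16.45 in Abcb11-/-, while Afp, the fetal one of the list, had a mean of 4.91 in WT and 6.65 in Abcb11-/- (limma adjusted p = 0.19). The log2 summed level of 9 macrophage and Kupffer cell markers was 11.47 in Abcb11-/- replicate 1, below the lowest WT mouse (11.52), and 12.60 and 12.11 in replicates 2 and 3, above all WT mice, and none of the 9 passed the test. Neutrophil markers had a summed level of 6.25 to 6.78 in WT and 7.51 to 9.10 in Abcb11-/-, and 3 of 7 passed it. The part of these cells in the results was not tested, and in whole tissue fewer cells of a type cannot be told apart from less RNA per cell.

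The first question was whether the 3 systems changed in the liver of Abcb11-/- mice. Most genes did not pass the test. Of 44 genes, F5, F7, F11 and Masp1 were lower and C6 was higher at an adjusted p under 0.05 (limma, Benjamini-Hochberg over all 17097 genes). That is 9.09% lower and 2.27% higher, beside 2.91% lower and 4.33% higher among all genes. Of the 44, 32 have a WT mean log2 value of at least 8, and among all 3154 genes that bright 7.2% were lower and 4.5% higher. By system, 3 of 23 coagulation genes were lower and none higher, none of 5 fibrinolysis genes passed in either direction, and 1 of 16 complement genes was higher and 1 lower. The median log2 fold change was -0.08 in coagulation, -0.10 in fibrinolysis and 0.03 in complement, beside 0.00 for all genes. The complement median changed sign with the mice used, from 0.10 without WT replicate 1 to -0.02 without WT replicate 3 and -0.07 without Abcb11-/- replicate 2.

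For those counts of 0, at an unadjusted p under 0.05 limma gave 1 higher coagulation gene (Tfpi) and 1 higher fibrinolysis gene (Plat), and the methods' test gave 1 higher coagulation gene (F10) and 1 lower fibrinolysis gene (Serpinf2). The groups did not overlap, with all 3 Abcb11-/- mice below all 3 WT mice, for 16 of 44 genes (36.4%), beside 12.1% of all genes and 22.7% of those with a WT mean of at least 8. They stood apart the other way for 5 genes (11.4%), beside 13.8% of all genes and 17.6% of those as bright. Of the 39 genes not called, 25 had a 95% interval that stayed inside 1.5-fold in both directions.

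**Figure D1:**
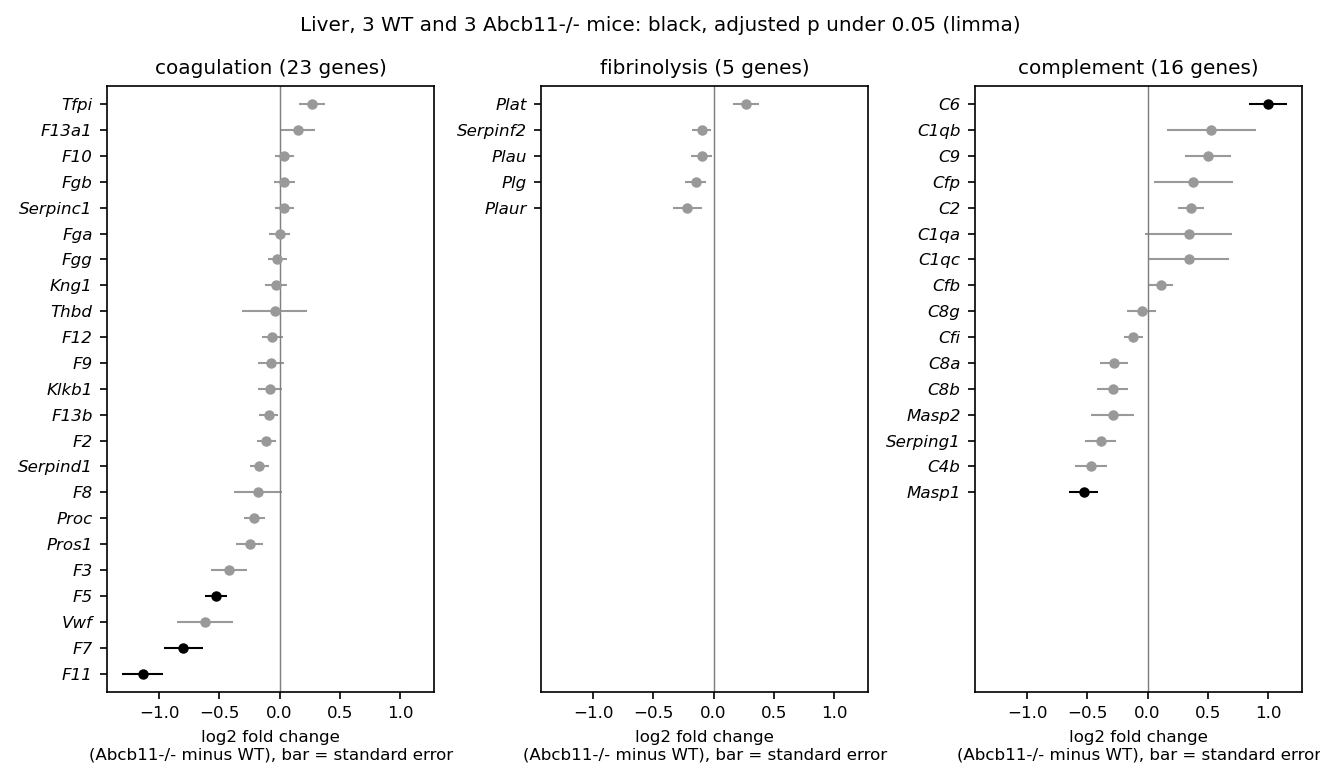
Log2 fold change of each gene in the liver (Abcb11-/- minus WT, x axis) by system, with the limma standard error as a bar (n = 3 mice per genotype). The 5 genes in black passed an adjusted p under 0.05: F11, F7, F5 and Masp1 lie to the left of 0, C6 to the right, and the fibrinogen genes sit at 0.

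Among the proteases and cofactors upstream of thrombin, F11, the factor XI zymogen that amplifies thrombin production, changed most. Its log2 values were 9.0, 9.08 and 8.73 in WT and 7.55, 7.70 and 8.13 in Abcb11-/-. The groups were clearly apart, with a log2 fold change of -1.14 (SE 0.17, 2.21-fold lower, limma adjusted p = 0.0082). Klkb1, plasma kallikrein of the contact system, lies 4.63 kb from F11 on chromosome 8, and its values were 11.49, 11.47 and 11.34 in WT and 11.41, 11.20 and 11.45 in Abcb11-/-. The groups overlapped, and its log2 fold change was -0.08 (SE 0.10, limma adjusted p = 0.73). The log2 ratio of F11 to Klkb1 within a mouse was -2.61 to -2.39 in WT and -3.86 to -3.32 in Abcb11-/-, so the neighbours moved apart by -1.06.

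F7, the protease that tissue factor binds to start clotting, had log2 values of 10.35, 10.28 and 10.40 in WT and 9.40, 9.92 and 9.31 in Abcb11-/-. All 3 Abcb11-/- mice lay below WT, replicate 2 least so, and the change was -0.80 (SE 0.16, limma adjusted p = 0.026). F10, the factor X zymogen that F7 and F9 activate, lies 1.5 kb away, and its values were 11.84, 11.84 and 11.82 in WT and 11.89, 11.89 and 11.85 in Abcb11-/-. Its change was 0.04 (SE 0.08, limma adjusted p = 0.82), and the log2 ratio of F7 to F10 differed by -0.84 between the genotypes. Of all 10 pairs of listed genes within 50 kb of each other, F11 with Klkb1 and F7 with F10 had by far the widest gaps in their changes. The other pairs, from the fibrinogen, C1q, C2 and Cfb, and C8 clusters, differed by 0.25 or less in either direction. These pairs were compared after their values were seen and were not tested.

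F5, the cofactor with which factor X converts prothrombin, had log2 values of 11.35, 11.29 and 11.16 in WT and 10.81, 10.65 and 10.76 in Abcb11-/-. The groups were apart by -0.53 (SE 0.09, limma adjusted p = 0.017), and a second F5 probe set gave -0.66. Of the 6 vitamin K-dependent proteins on the list of 46, F7 alone passed the test, and the other 5 (F2, F9, F10, Proc and Pros1) had log2 fold changes of -0.25 to 0.04. The median of the 6 was -0.16 and 5 of 6 were negative. In 4 of 6 (66.7%) all Abcb11-/- mice lay below all WT mice, beside 12.1% of all genes. Of the 6, 5 have a WT mean of at least 8, and among all genes that bright the share was 22.7%.

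**Figure D2:**
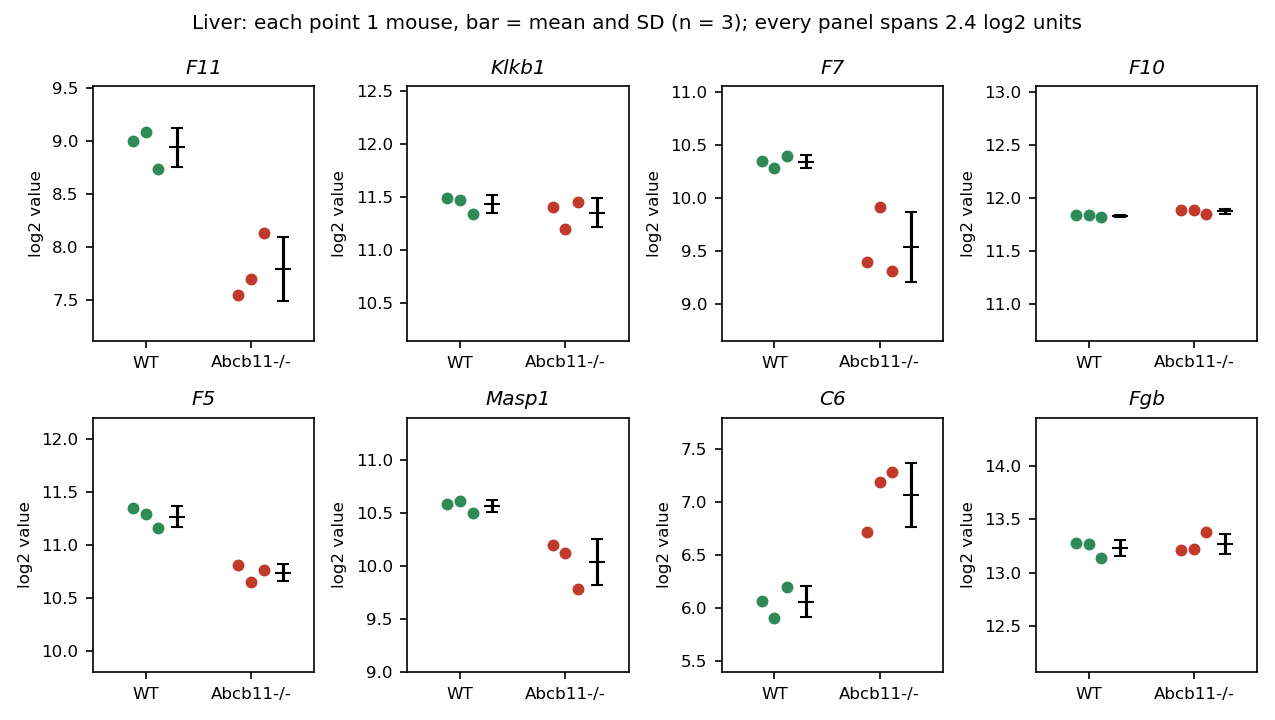
Log2 value in each liver (y axis, every panel spans the same range) for the 5 called genes and for Klkb1, F10 and Fgb, with points for single mice and a bar for the mean and SD (n = 3 per genotype). In F11, F7, F5, Masp1 and C6 the WT and Abcb11-/- points do not overlap, while Klkb1 and Fgb overlap and F10 differs by 0.04.

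Fibrinogen, the substrate of thrombin, was level. Fgb was at 13.28, 13.27 and 13.14 in WT and 13.21, 13.22 and 13.38 in Abcb11-/-, a log2 fold change of 0.04 (SE 0.09). The 95% interval reached from -0.18 to 0.26, and those of Fga (-0.21 to 0.20) and Fgg (-0.21 to 0.17) were as narrow, so that a change of 1.5-fold lay outside all 3. F2, the thrombin precursor, had a log2 fold change of -0.11, Serpinc1, its main inhibitor, of 0.04 and Serpind1, heparin cofactor II, of -0.17, none passing the test. Probes this bright can compress a change. F12, which starts the contact pathway, had a log2 fold change of -0.06, Kng1, the kininogen it acts with, of -0.03 (-0.33 with a second probe set, SE 0.08, limma adjusted p = 0.054), and F13b, the carrier subunit of the fibrin-crosslinking enzyme, of -0.09, again without passing.

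F3, Vwf, Thbd, F8, Tfpi and F13a1 were dim in the liver, with WT mean log2 values of 3.01 to 5.92. F3 had log2 values of 5.15 to 5.26 in WT and 4.50 to 5.10 in Abcb11-/-, a log2 fold change of -0.42 (SE 0.15, limma adjusted p = 0.15). Vwf, which tethers platelets and carries factor VIII, had a log2 fold change of -0.62 (SE 0.23, limma adjusted p = 0.17). Thbd, the thrombin receptor that turns on protein C, was at 4.28, 5.36 and 4.47 in Abcb11-/- against 4.49 to 4.89 in WT. F8, the cofactor missing in haemophilia A, had a log2 fold change of -0.18, Tfpi, the inhibitor of the tissue factor complex, of 0.27, and F13a1, the catalytic subunit of factor XIII, of 0.15, and none passed. Of 8 endothelial markers none passed, with summed levels of 9.65 to 9.95 in WT and 9.50 to 9.90 in Abcb11-/-.

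In fibrinolysis, Plg, the plasmin precursor, was at 12.77 to 12.92 in WT and 12.60 to 12.72 in Abcb11-/- (change -0.15, SE 0.09, limma adjusted p = 0.40), and Serpinf2, the plasmin inhibitor, had a log2 fold change of -0.10. Plat and Plau, the tissue and urokinase activators, and Plaur, the urokinase receptor, had WT means of 3.13 to 3.54, close to the array median, and changes of -0.22 to 0.27 that did not pass. Of 43 other measured pathway genes, 3 were higher and 1 was lower, beside 4.33% higher and 2.91% lower among all genes. Anxa2 and S100a10 together form a receptor that brings plasminogen and its activator to cell surfaces. Anxa2 had log2 values of 6.88, 6.66 and 6.87 in WT and 7.76, 7.94 and 8.07 in Abcb11-/- (1.12, SE 0.11, 2.17-fold, limma adjusted p = 0.0021). S100a10 had 10.69, 10.90 and 10.84 in WT and 11.34, 11.74 and 11.71 in Abcb11-/- (0.79, SE 0.13, 1.73-fold, limma adjusted p = 0.013). In both genes the genotypes did not overlap. The bile duct markers had a summed level of 5.63 to 5.85 in WT and 6.12 to 6.44 in Abcb11-/-. All 5 were dim, with genotype means of 3.01 to 4.33. Epcam and Sox9 passed as higher, 2 of 5, while Krt7 and Krt19 overlapped between the genotypes (limma adjusted p = 0.29 and 0.41). The part of these cells was not tested. Tgm2, a tissue relative of the fibrin-crosslinking transglutaminase, rose 1.90-fold (9.58 to 9.82 in WT, 10.48 to 10.71 in Abcb11-/-, limma adjusted p = 0.0036).

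In complement, C6, a component of the membrane pore, had log2 values of 6.07, 5.91 and 6.20 in WT and 6.72, 7.19 and 7.28 in Abcb11-/-. All Abcb11-/- mice lay above WT, by 1.00 on average (SE 0.16, limma adjusted p = 0.011). C9, which polymerises to finish the pore, was at 11.19, 11.47 and 11.86 in WT and 11.85, 12.26 and 11.92 in Abcb11-/- (0.50, SE 0.19, limma adjusted p = 0.16), and the groups overlapped. C8a, C8b and C8g, the chains of C8, had log2 fold changes of -0.28, -0.29 and -0.05, none passing. Cd59a, a membrane protein that blocks pore assembly and no member of the list of 46, was lower, at 10.04, 10.12 and 10.38 in WT and 9.0, 9.43 and 9.22 in Abcb11-/- (-0.96, SE 0.14, 1.95-fold lower, limma adjusted p = 0.0081).

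Of the lectin pathway, Masp1 had log2 values of 10.59, 10.61 and 10.50 in WT and 10.20, 10.12 and 9.79 in Abcb11-/-, a log2 fold change of -0.53 (SE 0.12, limma adjusted p = 0.043). The groups did not overlap, but Masp1 sat just under the threshold and its 4 dimmer probe sets ranged from -0.68 to -0.04. Masp2 had a log2 fold change of -0.29 (SE 0.18) with one probe set and 0.06 with the other. C4b, which both the classical and the lectin route cleave, was at 11.96, 11.97 and 12.18 in WT and 11.40, 11.80 and 11.50 in Abcb11-/- (-0.47, SE 0.13, limma adjusted p = 0.071). Its probes may also read the near-identical gene C4a. C2, the protease that joins C4b, was at 9.10 to 9.38 in WT and 9.48 to 9.64 in Abcb11-/- (0.36, SE 0.11, limma adjusted p = 0.091), without overlap. Serping1, the inhibitor of C1 and of kallikrein, had a log2 fold change of -0.39 (SE 0.13, limma adjusted p = 0.13), Cfb of 0.11 and Cfi, which destroys active C3 and C4 fragments, of -0.12.

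The C1q genes varied more among the Abcb11-/- mice than they differed between the genotypes. C1qb was at 9.10, 8.38 and 8.62 in WT and 8.40, 9.93 and 9.36 in Abcb11-/-, with a log2 fold change of 0.53 (SE 0.37, limma adjusted p = 0.48). C1qa and C1qc had the same order of mice within Abcb11-/-, with replicate 2 highest, and changes of 0.34 each (SE 0.36 and 0.34). Cfp, properdin, which leucocytes make, was at 7.49, 8.82 and 7.89 in Abcb11-/-. The macrophage marker sum given above had that order too. Abcb11-/- replicate 2 was the highest of its group for 12 of 16 complement genes (75.0%) and for 25 of all 44 (56.8%), beside 34.5% of all 17097 genes, and the reason was not tested.

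The calls rested on few mice. F11 remained at a limma adjusted p of 0.0078 to 0.046 when each mouse was left out in turn. C6 went to 0.052 without WT replicate 1 and 0.059 without WT replicate 2. F5 went to 0.068 without WT replicate 1, to 0.078 without WT replicate 2 and to 0.054 without Abcb11-/- replicate 3. For F7 the values were 0.091, 0.089 and 0.099 without WT replicates 1, 2 and 3, and 0.079 without Abcb11-/- replicate 3. For Masp1 they were 0.13, 0.15 and 0.10 without WT replicates 1, 2 and 3, and 0.053 and 0.082 without Abcb11-/- replicates 2 and 3. Without Abcb11-/- replicate 2, by contrast, C4b (0.024), Serping1 (0.019) and Vwf (0.020) passed as lower, as F3 did without Abcb11-/- replicate 1 (0.032). The count of lower genes was thus 1 without WT replicate 1, WT replicate 2 or Abcb11-/- replicate 3, 2 without WT replicate 3, 5 without Abcb11-/- replicate 1 and 6 without Abcb11-/- replicate 2. Lower calls over all genes, 498 with all mice, also moved. They were 193, 177 and 206 without WT replicates 1, 2 and 3. Without Abcb11-/- replicates 1, 2 and 3 they were 480, 621 and 271.

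Among 8 measured regulators of liver plasma protein genes, Nr1h4, which encodes the bile acid receptor FXR, had log2 values of 9.34, 9.52 and 9.65 in WT and 8.76, 8.79 and 8.42 in Abcb11-/- (-0.85, SE 0.13, limma adjusted p = 0.011). Il6ra, the receptor chain through which interleukin 6 drives the acute phase, had 8.18, 8.27 and 8.28 in WT and 7.20, 7.68 and 7.67 in Abcb11-/- (-0.73, SE 0.14, limma adjusted p = 0.023). In neither gene did the genotypes overlap. Cebpa (-0.59, limma adjusted p = 0.079), Cebpb, Foxa2, Hnf4a, Stat3 and Socs3 did not pass.

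The second question was which of these genes the developing lung itself carried, and how they lay by the mother's genotype. Genes were called lung-expressed where the log2 value was at least 6 on all 4 arrays of E18.5 and PN0, and liver-type where it was not and the WT adult liver mean of the same probe set was at least 8 and at least 2 above those lung arrays. The E17.5 arrays were not used in either rule, apart from the choice of a gene's brightest probe set over all 6 lung arrays. There were 12 lung-expressed genes, 27 liver-type genes and 5 that met neither rule (F8, Plat, Plau, Cfp and Masp1, marked as low in both in the plots). Plat lay just outside, at 5.93 on the WT-mother array of E18.5, and C6 (6.23) and C1qb (6.24) just inside. The other 4 of these 5 were at 3.14 to 4.70 on the later arrays, and the liver-type genes at 2.60 to 5.18. For Plau, Tfpi and Masp1 the brightest lung probe set is another than in the liver. That of Masp1 had a WT liver mean of 7.72, under the minimum of 8, while the probe set used for the liver had 10.57.

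**Figure D3:**
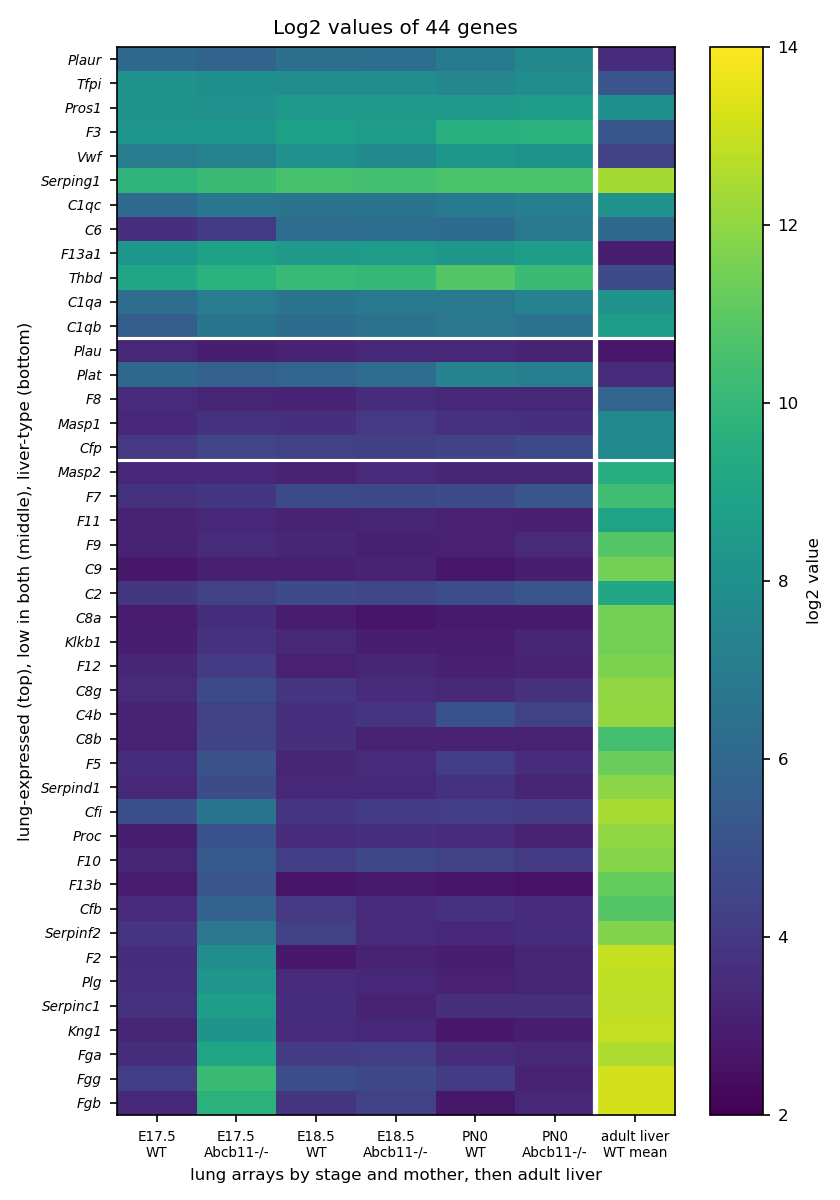
Log2 value (colour) of the 44 genes on the 6 lung arrays, by stage and mother, and the mean of the 3 WT adult livers, which is on another scale. The lung-expressed genes at the top are bright in all columns of E18.5 and PN0, the 7 genes in the bottom rows (F2 to Fgb) are at 7.89 to 10.17 at E17.5 with an Abcb11-/- mother, and the liver-type genes are at 2.60 to 5.18 at the later stages.

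The lung-expressed genes were mostly those of vessel walls, macrophages and the cell surface. Thbd was at 10.08 (WT mother) and 10.01 (Abcb11-/- mother) at E18.5, with PN0 values of 10.77 and 10.16. Serping1 stayed between 10.43 and 10.59 on these 4 arrays, F13a1 between 8.36 and 8.67 and Pros1 between 8.43 and 8.59. Vwf was at 7.71 to 8.34, Tfpi at 7.57 to 7.88, and the 3 C1q chains at 6.24 to 7.33.

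The array pairs of a stage have no replicates, so differences with the mother are given without a test. At E18.5 no gene of the 44 was 1.5-fold or more higher with an Abcb11-/- mother (2.13% of all genes were), and Serpinf2 alone was lower, at 4.35 and 3.43 (-0.91, beside 1.26% of all genes). Both Serpinf2 values are dim. At PN0, Plaur and C6 were higher, 2 of 44, beside 4.16% of all genes. In the order WT mother and then Abcb11-/- mother, Plaur was at 6.88 and 7.60 (0.72), and C6 at 6.23 and 6.87 (0.65). Lower at PN0 were Thbd (10.77 and 10.16, -0.62), F5 (4.16 and 3.53, -0.63), Fgg (4.09 and 3.14, -0.95) and C4b (5.02 and 4.33, -0.69), 4 of 44, beside 2.88% of all genes. Thbd is the one bright gene among these 4. The neutrophil markers were lower there too, 4 of 7 by 1.5-fold or more (median log2 difference -0.66), as were 3 of 5 skeletal muscle and 2 of 5 megakaryocyte and platelet markers, while 3 of 9 hepatocyte and 2 of 7 stellate cell and fibroblast markers were higher. The part of these cells was not tested.

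E17.5 was unlike the later stages. With an Abcb11-/- mother 24 of 44 genes were 1.5-fold or more higher, beside 3.47% of all genes, and none was lower, beside 3.55%. At 2-fold there were 19, beside 1.3% of all genes. Of these, 18 were liver-type, out of 27 (66.7%), with a median log2 difference of 1.40. Among the 535 other genes of the series that met the liver-type rule, 81 were 2-fold or more higher (15.1%), with a median difference of 0.17, and their median value in WT adult liver was 9.89 against 11.73 for the listed ones. The 12 lung-expressed genes had a median difference of 0.44, and 1 of them, C1qb, was 2-fold or more higher (8.33%). Among the 6616 other lung-expressed genes of the series the median difference was -0.04, and 0.741% were 2-fold or more higher. The array with an Abcb11-/- mother at E17.5 was the highest of all 6 lung arrays for 22 of the 27 liver-type genes and for 1 of the 12 lung-expressed ones. Among the other genes of the series it was the highest for 206 of 535 liver-type and 826 of 6616 lung-expressed ones. The 4 later arrays also set the classes, so the contrast between classes is partly built in.

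Fibrinogen was furthest apart. In the same order of mothers, the log2 values of Fgb were 3.39 and 9.71 at E17.5, then 3.84 and 4.38 at E18.5 and 2.76 and 3.32 at PN0. Fgg had 4.20 and 10.17 at E17.5, with 3.14 to 4.88 on the later arrays. Fga had 3.57 and 9.12 at E17.5, with 3.34 to 4.19 later. A single array thus held all 3 chains, at differences of 6.33, 5.98 and 5.56, and the other 5 lung arrays had them at 2.76 to 4.88. The fibrinogen genes, whose promoters are printed above, share one cluster on chromosome 3. Whether the promoter letters bear on these differences was not tested.

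Close behind came Kng1 (3.23 and 8.19), Serpinc1 (3.77 and 8.69), Plg (3.61 and 8.27) and F2 (3.56 and 7.89), with differences of 4.33 to 4.96. These 7 genes, all 4 or more apart on the log2 scale, have WT liver means of 12.50 to 13.23. An intermediate set of 11 lay 1 to 4 apart: Serpinf2 (2.90), Cfb (2.31), F13b (2.22), F10 (2.11), Proc (2.00), Cfi (1.70), Serpind1 (1.40), F5 (1.39), C8b (1.31), C4b (1.25) and C8g (1.22). The remaining 9 were less than 1 apart: F12 (0.83), Klkb1 (0.68), C8a (0.61), C2 (0.46), C9 (0.31), F9 (0.25), F11 (0.23), F7 (0.19) and Masp2 (0.01). Their WT liver means were 8.94 to 11.61. Brightness differs between probe sets for reasons other than transcript number, so this order describes probe sets and not amounts of mRNA.

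**Figure D4:**
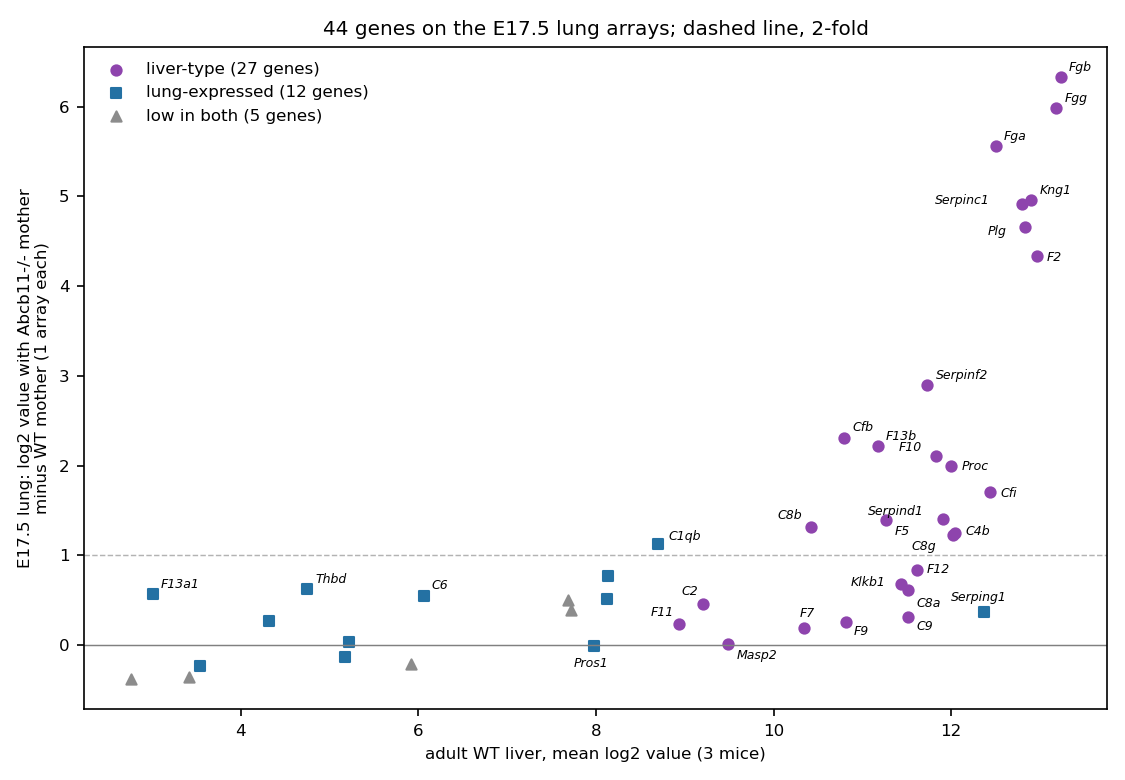
Log2 difference between the E17.5 lung arrays (Abcb11-/- mother minus WT mother, 1 array each, y axis) against the mean log2 value in 3 WT adult livers (x axis), 1 point per gene, coloured by class. The 7 points above 4 are liver-type genes with liver values of 12.50 to 13.23, and the lung-expressed genes lie between -0.24 and 1.12.

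Markers of other cells moved on the same array. Of 9 hepatocyte markers, 8 were 1.5-fold or more higher on this array, with a median difference of 3.96 and a log2 summed level of 14.39 against 10.92, beside 10.99 to 11.54 on the later arrays. Alb was at 13.01 against 9.05, Afp, the fetal albumin relative, at 12.28 against 8.76, and the adult enzyme Tat at 2.92 against 2.61. All 5 skeletal muscle markers (summed level 11.48 against 6.94) and 6 of 7 neutrophil markers (10.53 against 9.41) were higher too. The summed level of the lung epithelium markers was 14.39 against 14.25, and that of the endothelial markers 11.96 against 12.15. Of these lists, 1 of 5 epithelial markers (Scgb1a1) and 1 of 8 endothelial markers (Stab2, at 5.68 against 4.84) were 1.5-fold or more higher, and none was lower by as much. The part of these cells in the differences at E17.5 was not tested. Of the other pathway genes, 4 of 14 liver-type ones and 1 of 15 lung-expressed ones were 2-fold or more higher at E17.5.

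Besides Serping1, the lung-expressed genes of complement were the C1q chains and C6. C1qa was at 6.31 (WT mother) and 7.07 (Abcb11-/- mother) at E17.5, 6.62 and 6.85 at E18.5 and 6.86 and 7.33 at PN0. C1qb was at 5.53 and 6.65, 6.24 and 6.52, and 6.78 and 6.59 in that order, and C1qc at 6.19 and 6.70, 6.60 and 6.65, and 6.88 and 7.11. C1qa and C1qc were thus higher with an Abcb11-/- mother at each stage, and C1qb at the first pair of stages. The macrophage markers had summed levels of 10.87 and 11.42 at E17.5, 12.78 and 12.80 at E18.5 and 12.92 and 13.12 at PN0. Lyz2, much the brightest, largely set these sums (10.55 and 11.17, 12.64 and 12.66, 12.77 and 12.99). The median difference of the 9 markers was 0.16, 0.08 and 0.13. Single markers went both ways, as Mpeg1 did (7.85 and 8.01 at E17.5, 9.25 and 9.12 at PN0). The part of these cells was not tested. C6 was at 3.60 and 4.15 at E17.5 and at 6.23 to 6.87 on the 4 later arrays, a step between E17.5 and E18.5 seen with either mother.

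Over the 3 stages, a limma fit with terms for stage and mother called none of the 44 genes and none of 17097 in all for the mother (0.0%), on 2 residual degrees of freedom. At an unadjusted p under 0.05 there were 867 genes (5.07%), among them 3 of the 44: C1qa (0.49, SE 0.14), C6 (0.42, SE 0.15) and F13a1 (0.35, SE 0.12), each with an adjusted p of 0.93 (limma). All 3 were higher with an Abcb11-/- mother in each of the 3 stages. They were picked by a fit to these same arrays, so this shared direction adds no support.

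Between E18.5 and PN0, across birth, the same fit also called none of the 44 and none of all genes (0.0%), with 2098 (12.3%) at an unadjusted p under 0.05. F3, the trigger of clotting, was at 8.84 and 8.63 at E18.5 and 9.63 and 9.66 at PN0 (0.91, SE 0.14, limma adjusted p = 0.16). Plat, which activates plasminogen, was at 5.93 and 6.30, then 7.32 and 7.11 (1.10, SE 0.21, limma adjusted p = 0.20). Plaur was at 6.42 and 6.35, then 6.88 and 7.60 (0.86, SE 0.25, limma adjusted p = 0.31). In all 3 genes both PN0 arrays lay above both E18.5 arrays, which picking them by this fit largely brings about. These were the 3 of the 44 genes with an unadjusted p under 0.05, beside the 12.3% of all genes given above. Without the E17.5 arrays that count was 10, and no share of all genes at the same threshold is given for that fit. Calls over all genes at an adjusted p under 0.05, a stricter threshold, went from 0 to 35. Whether the rise in the count is particular to the 44 genes therefore cannot be told. F3 passed an adjusted p under 0.05 only with a trended and robust prior.

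**Figure D5:**
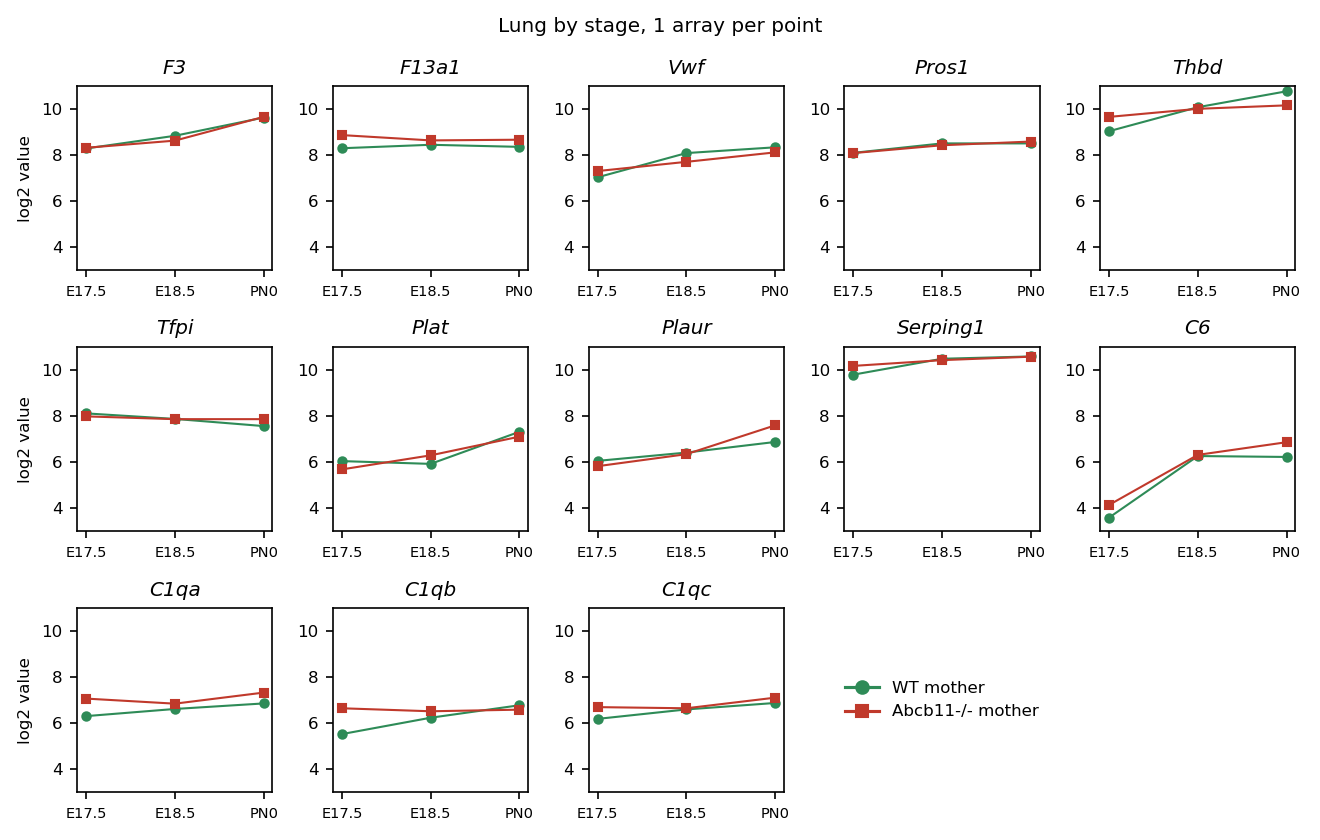
Log2 value (y axis) at E17.5, E18.5 and PN0 (x axis) of the 12 lung-expressed genes and of Plat, with circles for a WT mother and squares for an Abcb11-/- mother, 1 array per point. F3, Plat and Plaur have their highest values at PN0, and C6 steps from 3.60 and 4.15 at E17.5 to 6.23 or more afterwards.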

How the data were processed

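The 12 arrays (HT MG430 PM plates) were deposited as log2 values, which the authors made by robust multiarray averaging (RMA). Partek 6.5 is named in the submitters' processing notes. There is no detection call, and precision is limited by how few arrays there are. The annotation table gave 1 gene for 28898 of 45037 probe sets, several for 551 and none for 15588, and 28689 of the named ones matched the current annotation. Of several probe sets of a gene, the one with the highest mean over a tissue's 6 arrays was kept (8 of the 44 genes had several). Liver genotypes were compared with limma 3.58.1 in R 4.3.3 (lmFit, eBayes, Benjamini-Hochberg over 17097 genes, adjusted p under 0.05). The labels number the livers as replicates, taken as separate mice. Lung arrays were compared at 1.5-fold, and over stages with limma. The genes, marker lists, motifs and classes were chosen with earlier results of these data known. Named were all 44 genes, the other pathway genes that passed in the liver and up to 4 markers of a list. Scripts were tested on simulated data. Alternatives were averaged probe sets, a minimum log2 value, quantile normalization, median centring, another prior, a replicate block, single mice left out, the methods' two-tailed Student's test and other folds and minimums.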

Additional observations from a re-analysis of the deposited data

Results flagged for a closer look

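In 5 of the listed genes the difference with the mother (Abcb11-/- minus WT, log2) was 1.5-fold or more in opposite directions at 2 stages of the lung. The share of all genes that did so is not given, so the count is not read as particular to the list. Each difference rests on 1 array per mother, so the change of direction was not tested. Fgg was 5.98 at E17.5 and -0.95 at PN0, a gap of 6.93. F5 was 1.39 and -0.63 at these stages, a gap of 2.01, and C4b 1.25 and -0.69, a gap of 1.94. Thbd, the only one of the 5 with bright values on all 6 lung arrays, was 0.62 at E17.5 and -0.62 at PN0, a gap of 1.23. Serpinf2 was 2.90 at E17.5 and -0.91 at E18.5, a gap of 3.82. In Fgg, F5, C4b and Serpinf2 the later values lie at or below 5.02. The E17.5 array with an Abcb11-/- mother is the one with raised hepatocyte, skeletal muscle and neutrophil markers. The part of these cells in the changes of direction was not tested.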

How the results depend on the processing

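Beside 1 higher and 4 lower genes of the 44 in the liver, the methods' test gave 3 higher and 10 lower at an unadjusted p under 0.05 and 0 and 0 after Benjamini-Hochberg, and leaving out single mice gave 0 to 1 higher and 1 to 6 lower. With the replicate block 1 was lower (F11); same-numbered mice did not deviate together (correlations of -0.045, -0.041 and -0.135), so the numbers were not taken as pairs. The coagulation median ranged from -0.12 (without Abcb11-/- replicate 2) to -0.07 with single mice left out, against -0.08, and the complement median from -0.07 (without Abcb11-/- replicate 2) to 0.10 (without WT replicate 1), against 0.03. Over all genes, called 740 higher and 498 lower, the counts were 429 and 242 with the block, 315 to 888 and 177 to 621 with single mice left out, and 1685 and 1444 before and 26 and 23 after adjustment with the methods' test. In the lung, where the brighter array had to reach 6, 12 genes were higher at E17.5, 0 lower at E18.5 and 1 lower at PN0. That minimum can be met on the higher array alone, as by Fgb at E17.5 (3.39 and 9.71), so these counts add no support. At 2-fold, 0 were lower at E18.5, and 0 higher and 0 lower at PN0. A trended and robust prior gave 1 gene between PN0 and E18.5, F3. For all genes this contrast gave 0 to 87 calls over its alternatives. Among single genes, 595 results kept direction and call, 22 lost a call and 14 gained one. In 20 results of 11 genes, none called under either setting, the fold change turned in sign or came to 0.00. With single mice left out the ranges of these genes were -0.32 to 0.01 for F8, -0.10 to 0.00 for F12, -0.05 to 0.03 for Fga, -0.01 to 0.07 for Fgb, -0.06 to 0.00 for Fgg, -0.37 to 0.17 for Thbd, -0.07 to 0.02 for Kng1, -0.01 to 0.71 for C1qc and -0.17 to 0.04 for C8g. Kng1 came to 0.01 after quantile normalization, Fga to 0.01 with median centring, and F10 to -0.06 and Plau to 0.02 with averaged probe sets. Liver results of a fit over all 12 arrays were identical, since each lung group holds 1 array.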
